A study of Mus musculus with 30 samples.

Results

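The immediate early genes described here are Fos, Fosb, Junb, Egr1, Egr2, Arc, Npas4, Nr4a1, Ier2 and Dusp1, 10 of the 24421 genes listed, chosen by name and followed through 28 cortical tumours of mice and 2 libraries of normal cortex. All 10 passed the filter on low values (at least 1 RPM in at least 3 libraries). The tumours lay in the cortex, are labelled glioblastoma, and were taken with the normal cortex at postnatal day 70. They carried the epidermal growth factor receptor as wild-type EGFR (3 libraries) or as a variant with 1 residue replaced, of which there were 6, A289I (5), A289V (4), R108G (3), R108K (4), R222C (3) and T263P (3). Control tumours carried the fluorescent protein mCherry (3), and normal cortex gave 2 libraries. Strain, the driver of the introduced genes and any further tumour-forming alteration are not given in the sources used here. The submitters state 3 to 5 mice per variant, while no label says whether the 2 cortex libraries came from separate animals, so that p-values against cortex measure the spread between these samples only.

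Immediate early genes are transcribed within minutes of a stimulus, without new protein synthesis, from promoters that carry binding sites for factors already in the cell, such as CREB at cyclic AMP response elements and SRF at CArG boxes. Receptor tyrosine kinases such as EGFR reach them through the Ras and MAP kinase cascade, and in neurons synaptic activity reaches them through calcium. Some are induced in most cell types (Fos, Junb, Egr1, Ier2, Dusp1), whereas Npas4 and Arc are known mainly from active neurons. The tumours held very different amounts of neuronal RNA, and the genes were therefore set against neuronal content as well as against the receptor forms.

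Promoter sequence shows what these genes share beyond their name. RefSeq entries on GRCm38.p6 (mm10) were used for 7 of the genes, Fos, Fosb, Junb, Egr2, Npas4, Nr4a1 and Dusp1. The promoters of Egr1, Arc and Ier2 were not searched, so the motif counts say nothing about these genes. In the 250 bases before the start site, on either strand, the core of the cyclic AMP response element, TGACG, was present in all 7, with Egr2 counted for any of its 5 annotated starts. It was present in 17.8% of all 32851 promoters of the same length. The full element TGACGTCA, which contains that core, was found in Dusp1 alone of the 7 and in 1.55% of all promoters. The CArG box was found in Egr2 alone of the 7 (1.47% of all promoters), and bases farther upstream than these windows were not searched. The AP-1 motif TGANTCA was in none of the 7 windows (6.75% of all promoters). The Egr motif GCGNGGGCG was in the windows of Fosb and Nr4a1 (4.7% of all promoters). A match describes the letters and was not tested as a binding site.

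The windows of a gene that followed neuronal content by some fits (Fosb) and of 2 genes that were higher in tumours (Fos, Nr4a1) are printed 5′ to 3′ on the strand of the gene, with the TGACG core or the full element, on either strand, in capitals. They span chr7:19310046-19310295 on the minus strand for Fosb, chr12:85473640-85473889 on the plus strand for Fos and chr15:101266596-101266845 on the plus strand for Nr4a1. For Npas4 the stretch of 24 bases that holds its cores is printed, and for Dusp1 the 20 bases around its full element. They lie at chr19:4990131-4990154 and chr17:26508602-26508621, both on the minus strand.
Fosb: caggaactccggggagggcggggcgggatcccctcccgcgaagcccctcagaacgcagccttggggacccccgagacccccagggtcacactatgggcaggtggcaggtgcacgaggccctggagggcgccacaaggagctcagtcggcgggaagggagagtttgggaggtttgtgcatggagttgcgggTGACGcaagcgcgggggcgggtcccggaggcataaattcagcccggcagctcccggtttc
Fos: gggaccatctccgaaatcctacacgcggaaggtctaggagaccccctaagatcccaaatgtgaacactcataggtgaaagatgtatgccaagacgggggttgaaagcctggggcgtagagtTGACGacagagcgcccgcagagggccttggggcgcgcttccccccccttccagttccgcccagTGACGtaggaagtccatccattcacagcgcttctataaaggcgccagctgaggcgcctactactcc
Nr4a1: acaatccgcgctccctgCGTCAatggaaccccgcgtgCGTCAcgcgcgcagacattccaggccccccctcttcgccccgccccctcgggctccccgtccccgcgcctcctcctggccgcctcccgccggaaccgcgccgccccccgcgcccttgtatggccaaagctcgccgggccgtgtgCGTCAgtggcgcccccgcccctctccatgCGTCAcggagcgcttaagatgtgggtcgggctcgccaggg
Npas4: tcgaCGTCAcgggaTGACGtcgga
Dusp1: ggcgggTGACGTCAccgccc
The Fos window held the core at -129 and -66 from the start site and the Fosb window at -60. The Nr4a1 window held it 4 times, at -233, -213, -69 and -40. In Npas4 the cores lay at -179 and -169, on opposite strands. In Dusp1 the full element lay at -143, and a further core at -191 lay outside the printed stretch.

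Levels are given as RPM, the deposited normalised count divided by 10.2638, and differences are limma estimates on log2(RPM + 1), with p-values adjusted by Benjamini and Hochberg over all 15824 genes tested and called under 0.05. The libraries held 2784129 to 24475215 reads, so that 1 read was worth 0.0387 to 0.383 RPM. Library numbers fell in 3 ranges, below 20 (7 tumours), 20 to 37 (12 tumours and both cortex libraries) and above 37 (9 tumours). Rn45s, a ribosomal RNA transcript, took 2.47% to 4.57% of all reads in the 20 to 37 tumours, at most 1.32% in the other tumours, and 0.873% to 1.24% in cortex. Neuronal content was summarised as the neuron score, the mean log2(RPM + 1) of 25 neuron genes. It ran from 2.74 to 8.58 in tumours, with a median of 5.34, and was 9.02 and 9.08 in cortex.

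Per kilobase of exonic sequence, the median over the 28 tumours was highest for Nr4a1 at 34.6 RPM per kb, Junb at 31.2 and Fos at 31.1. Ier2 and Egr1 followed at 20.5 RPM per kb each, then Dusp1 at 9.27 and Arc at 5.34. Egr2 at 1.91, Fosb at 0.850 and Npas4 at 0.175 RPM per kb were the lowest. In normal cortex the order differed, with mean levels of 34.3 RPM per kb for Egr1, 21.4 for Junb and 19.97 for Arc at the top, and Fos at 5.16 and Nr4a1 at 11.4 RPM per kb.

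**Figure D1:**
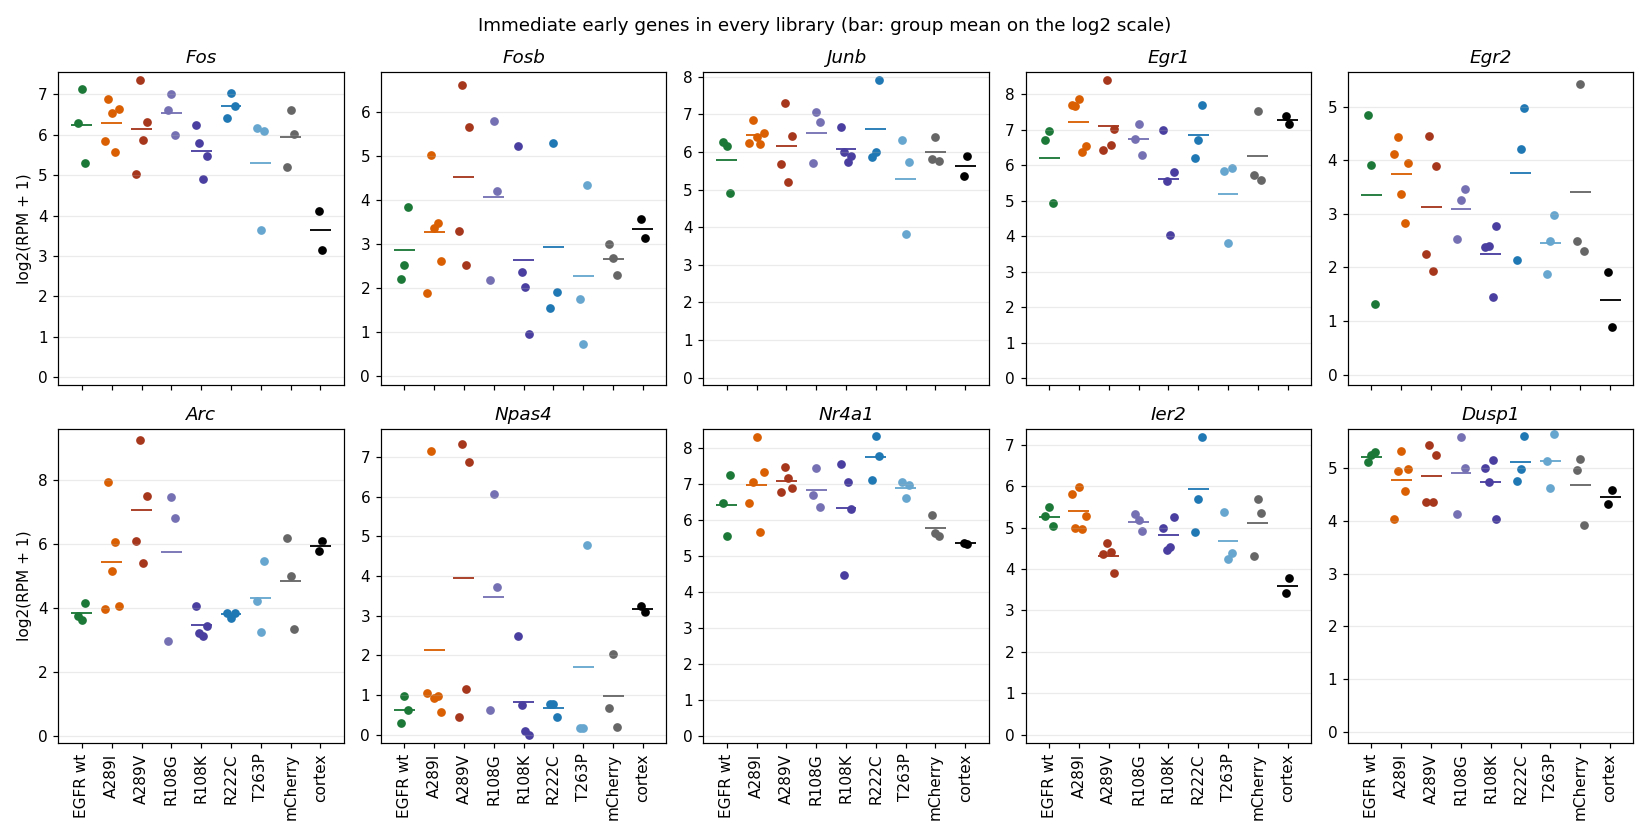
Level of each immediate early gene in every library, as log2(RPM + 1), by group, with the receptor forms at the left, then mCherry tumours and normal cortex. Each point is 1 library and each bar the group mean. All 28 tumours lie above cortex in Ier2 and 27 in Fos, and Npas4 is near 0 in most tumours and high in 6.

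Tumours as a whole were set against normal cortex. Fos, Ier2 and Nr4a1 were higher in tumours, by 2.46, 1.49 and 1.40 on the log2 scale, and no member was lower by the same test. That is 3 of 10 members up and 0 down, beside 22.9% of all genes called up and 24.5% called down, so that the number called was near the background. The median difference of the 10 members was 0.48 on the log2 scale, against 0.03 for all genes.

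Among the AP-1 genes, Fos, which encodes a subunit of that dimeric transcription factor, had 11.6 RPM in the lowest tumour, 73.1 RPM at the median and 162 RPM in the highest, against 16.3 and 7.92 RPM in cortex. The 1 tumour that was not above both cortex libraries was T263P library 2, at 11.6 RPM. The difference was 2.46 ± 0.54 (SE) on the log2 scale, with a limma adjusted p of 0.000612. Junb, another AP-1 subunit, had 13.2, 71.7 and 242 RPM in the lowest, median and highest tumour and 39.9 and 58.7 RPM in cortex, a difference of 0.48 ± 0.51 (limma adjusted p = 0.460). Its groups overlapped, with 17 tumours above both cortex libraries and 3 below. Fosb, an AP-1 gene with a stable splice product in stimulated neurons, had 0.664, 5.30 and 96.7 RPM in the lowest, median and highest tumour and 10.8 and 7.78 RPM in cortex. There 9 tumours lay above both cortex libraries and 16 below both, and the difference was -0.20 ± 1.05 (limma adjusted p = 0.893), a value that took the other sign, at 0.41, in edgeR and DESeq2.

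Nr4a1, an orphan nuclear receptor, had 21.04 RPM in the lowest tumour, 121 RPM at the median and 319.7 RPM in the highest, against 40.2 and 39.5 RPM in cortex. R108K library 2, at 21.04 RPM, was the only tumour below both cortex libraries, and the other 27 were above. The difference was 1.40 ± 0.53 (limma adjusted p = 0.0328). Ier2, a nuclear protein of the early growth response, had 13.9, 31.3 and 144 RPM in the lowest, median and highest tumour, against 9.63 and 12.7 RPM in cortex. All 28 tumours were above both cortex libraries, as they were for 16.0% of all genes tested. The difference was 1.49 ± 0.38 (limma adjusted p = 0.00267). Dusp1, a phosphatase that switches off MAP kinases, varied least, from 14.1 to 48.8 RPM over the tumours (median 30.7), with 18.9 and 22.8 RPM in cortex and a difference of 0.48 ± 0.37 (limma adjusted p = 0.293).

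The Egr genes encode zinc-finger transcription factors. Egr1 had 12.9, 92.0 and 335 RPM in the lowest, median and highest tumour and 166 and 141 RPM in cortex. It was below both cortex libraries in 22 tumours and above both in 6, and the difference of -0.88 ± 0.63 did not pass (limma adjusted p = 0.261). Egr2 had 1.48, 6.50 and 42.0 RPM in the lowest, median and highest tumour and 2.75 and 0.849 RPM in cortex, above both cortex libraries in 25 tumours. Its difference was 1.75 ± 0.76 with a limma adjusted p of 0.0611, and it passed in DESeq2 (adjusted p = 0.00810), with a pseudocount of 0.1 (0.0383), without EGFR wild-type library 3 (0.0258) and without R222C library 1 (0.0372). Those were 4 of 39 alternatives, and with 1 library left out the limma adjusted p reached 0.413. The cortex values of Egr2 rested on 16 and 6 reads.

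Arc, a regulator of glutamate receptor traffic at synapses, had 6.85, 16.3 and 616 RPM in the lowest, median and highest tumour and 54.5 and 67.6 RPM in cortex. It was below both cortex libraries in 20 tumours and above both in 6. The mean over tumours was 62.2 RPM, against 61.1 RPM in cortex, while on the log2 scale the difference was -1.13 ± 0.92 (limma adjusted p = 0.324). Npas4, a transcription factor that is known to be induced by calcium in neurons, showed the same split of scales, with a mean of 17.1 RPM in tumours and 7.96 RPM in cortex but a log2 difference of -1.36 ± 1.52 (limma adjusted p = 0.477).

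The 3 calls rested on 2 cortex libraries. Without cortex library 1, Ier2 (1.30, limma adjusted p = 0.0756) and Nr4a1 (1.42, 0.168) no longer passed, and without cortex library 2 neither Fos (1.98, 0.0521) nor Nr4a1 (1.39, 0.177) did. Among the libraries numbered 20 to 37 only, which include both cortex libraries, the differences were 2.17 for Fos (limma adjusted p = 0.00954), 1.37 for Ier2 (0.0362) and 1.80 for Nr4a1 (0.000629). With the neuron score as a covariate none of the 10 passed, with differences of 1.87 for Fos (limma adjusted p = 0.133), 0.45 for Ier2 (0.616) and 1.42 for Nr4a1 (0.273). Every cortex library had a higher neuron score than any tumour, so that tissue and neuronal content cannot be told apart in this comparison. In bulk samples, fewer cells of a type and less RNA per cell cannot be told apart either. Markers of other cells moved with it too: 15 of 15 cell cycle genes, 9 of 10 oligodendrocyte precursor (OPC) genes, 8 of 12 microglia and macrophage genes and 8 of 10 T and NK cell genes were higher in tumours, while 25 of 25 neuron, 8 of 12 myelin and 5 of 12 astrocyte genes were lower, with 1 astrocyte gene higher. As mean log2 level, OPC genes were at 7.24 to 9.48 in tumours and 6.10 to 6.16 in cortex, and microglia and macrophage genes at 5.81 to 7.99 in tumours and 5.45 to 5.56 in cortex. Myelin genes were at 4.52 to 9.02 in tumours and 8.62 to 8.63 in cortex, and astrocyte genes at 5.37 to 8.35 in tumours and 8.23 to 8.27 in cortex. The part of these lists in the result was not tested.

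The mCherry tumours, which had no added receptor, gave the same direction for Fos and Ier2. Fos had 36.0, 96.4 and 64.1 RPM in mCherry tumours, against 16.3 and 7.92 RPM in cortex, a difference of 2.31 ± 0.67 (limma adjusted p = 0.00885). Ier2 had 18.8, 50.4 and 40.1 RPM in mCherry tumours, against 9.63 and 12.7 RPM in cortex, a difference of 1.52 ± 0.48 (limma adjusted p = 0.0143). Neither gene's groups overlapped, though the share of all genes without overlap was not computed. With 2 of 10 members up and 0 down, beside 17.8% and 20.5% of all genes, this too was near the background. Nr4a1 had 69.6, 48.6 and 46.1 RPM in mCherry tumours and a difference from cortex of 0.43 ± 0.67 (limma adjusted p = 0.645). A term for the 3 ranges of library numbers left Fos at 1.999 (limma adjusted p = 0.108) and Ier2 at 1.36 (0.126). Without cortex library 2 Fos was 1.83 (limma adjusted p = 0.125) and Ier2 1.71 (0.0505). Ier2 was 1.34 (0.118) without cortex library 1 and 1.24 (0.0665) without mCherry library 2.

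**Figure D2:**
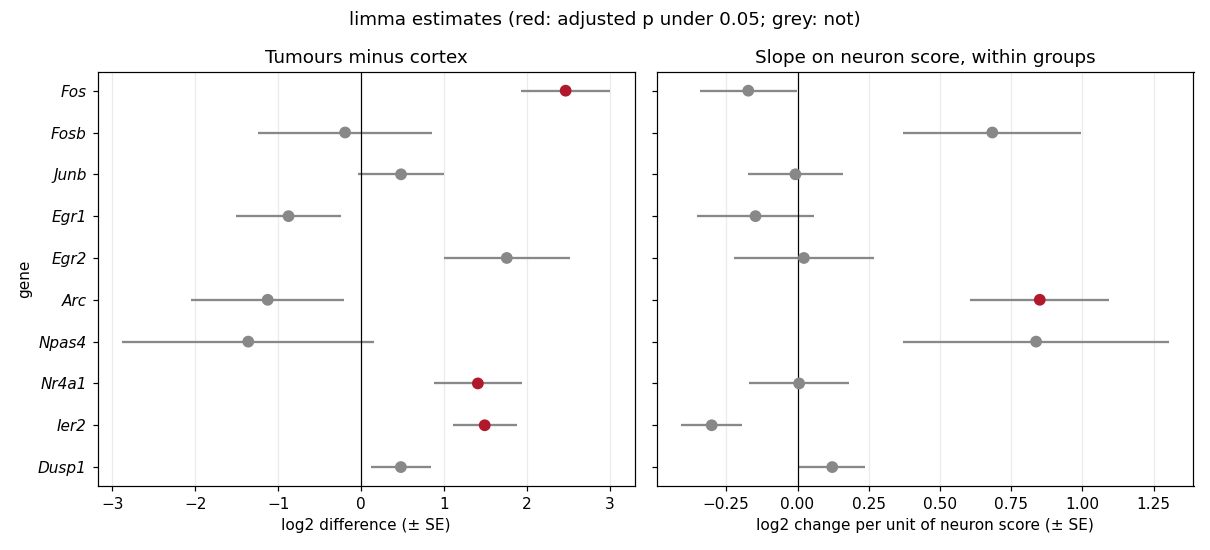
Left, log2 difference of tumours minus cortex for each gene, and right, change in log2(RPM + 1) per unit of neuron score within tumour groups, both from limma with standard errors. Red points passed an adjusted p of 0.05 (Fos, Nr4a1 and Ier2 at the left, Arc at the right).

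Neuronal content was tested within tumour groups, as the slope of each gene on the neuron score over the 28 tumours with 8 group means in the fit. Arc rose with neuronal content, by 0.85 ± 0.24 log2 units per unit of neuron score (limma adjusted p = 0.0231). It was the 1 member of 10 that passed, beside 9.12% of 15799 genes called up and 1.61% called down, again a share near the background. Npas4 had a slope of 0.84 ± 0.47 (limma adjusted p = 0.283) and Fosb one of 0.68 ± 0.31 (0.182). Both passed in DESeq2, Npas4 at 1.77 (adjusted p = 0.0123) and Fosb at 0.93 (0.0422), and with no group terms, at 0.96 (limma adjusted p = 0.00840) and 0.68 (0.00428). Ier2 had a slope of the other sign, -0.30 ± 0.11 (limma adjusted p = 0.0777), which passed with TMM scaling (-0.33, 0.0487), in DESeq2 (-0.31, 0.0467) and with no group terms (-0.25, 0.0202). Of 41 alternatives, counting each library left out, the slope passed in only 2 for Npas4, 3 for Fosb and 5 for Ier2. The other 6 members had slopes from -0.17 ± 0.17 for Fos to 0.12 ± 0.12 for Dusp1, none of which passed.

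Over the 28 tumours, without group terms, Arc had a Pearson r of 0.78 with the neuron score and a Spearman rho of 0.73 (permutation p = 1e-05, the smallest that 100000 resamples can give, and adjusted p = 0.0009 over 90 relations of 10 genes with 9 cell lists). Without the 2 tumours farthest from the median score, A289V libraries 1 and 2, r was 0.72. Within the ranges of library numbers it was 0.76 (below 20, n = 7, exact permutation p = 0.0478), 0.82 (20 to 37, n = 12, permutation p = 0.0014) and 0.84 (above 37, n = 9, exact permutation p = 0.00782), and in no range did it pass the adjustment. Fosb had an r of 0.56 and a rho of 0.60 (permutation adjusted p = 0.0293 and 0.0283), while r was 0.50 without the same 2 tumours and no longer passed (adjusted p = 0.102), and it was 0.08, 0.65 and 0.79 within the 3 ranges in the order of library numbers. Ier2 had an r of -0.49 (permutation adjusted p = 0.103) and a rho of -0.59 (0.0283), and r was -0.68, -0.50 and -0.70 within the ranges. Fos had an r of 0.00 over all tumours (permutation adjusted p = 0.982) and of -0.89, 0.29 and 0.04 within the ranges.

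The Arc slope was not stable in size. It was 1.55 in the tumours numbered above 37 (limma adjusted p = 0.0188), 0.60 in those numbered 20 to 37 (0.371) and 0.30 in those below 20 (0.852). Leaving out 1 tumour ended the call in 5 cases, without A289I library 1 (0.82, limma adjusted p = 0.0545), A289V library 2 (0.75, 0.0570), A289V library 3 (0.79, 0.0503), R108G library 1 (0.66, 0.0776) or mCherry library 1 (0.81, 0.0540). Among the other cell lists, Arc also had an r of 0.61 with astrocyte genes and -0.59 with cell cycle genes (permutation adjusted p = 0.0204 and 0.0232), which were 0.65 and -0.43 without the 2 tumours farthest on each list. Astrocyte genes moved with the neuron score, with 4 of 12 called up, and their part in the Arc result was not tested. Junb had an r of 0.63 with heat shock genes (permutation adjusted p = 0.0204), which rested on R222C library 3 and T263P library 2, since it was 0.24 without them.

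**Figure D3:**
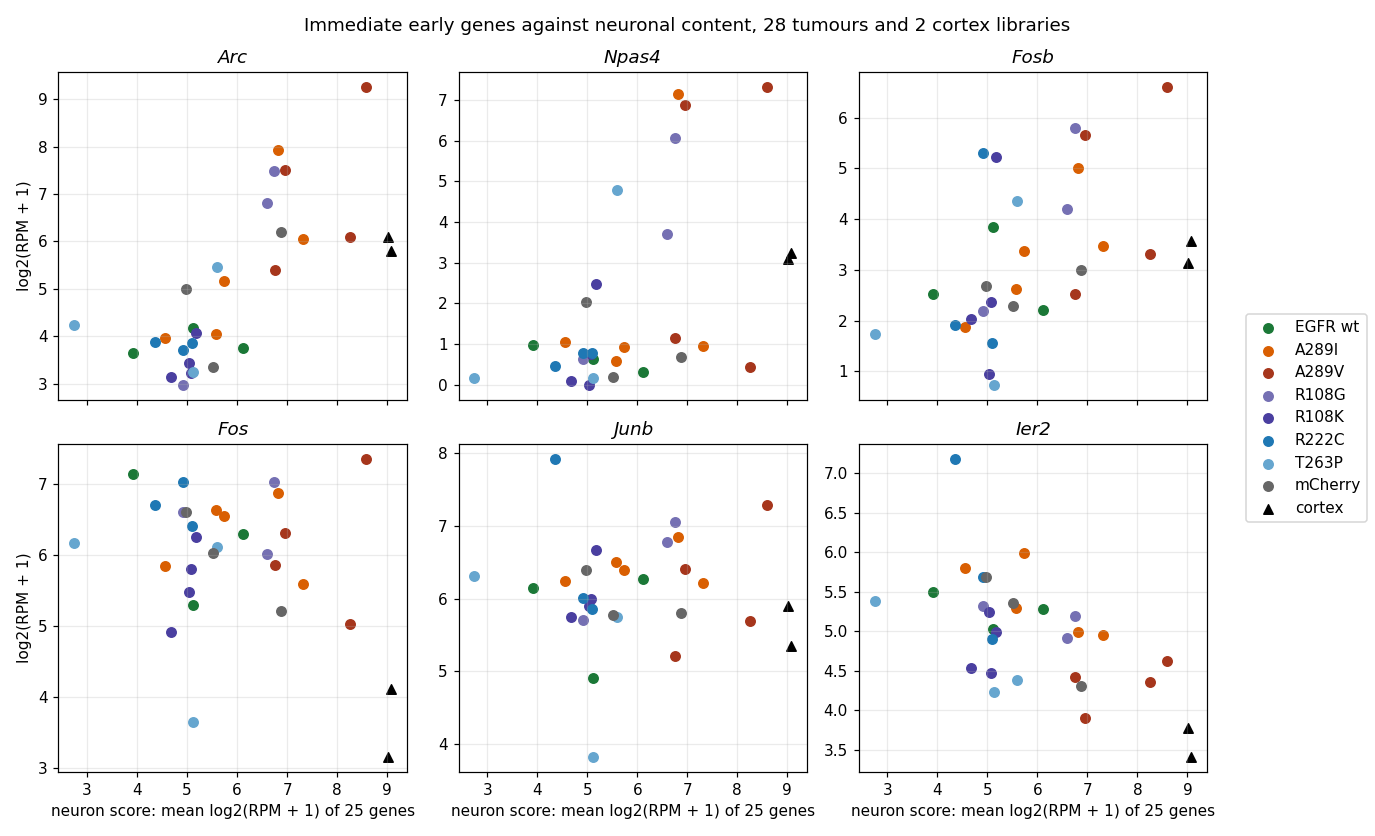
Level of 6 of the genes as log2(RPM + 1) against the neuron score, 1 point per library, with circles for the 28 tumours and triangles for the 2 cortex libraries. Arc climbs with the score over the tumours, Npas4 is high in 6 tumours and low in others of like score, and Fos and Junb show no trend.

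Npas4 did not follow the neuron score evenly. It had 141 RPM in A289I library 2, 159 RPM in A289V library 2 and 116 RPM in A289V library 4. It had 65.9 RPM in R108G library 2, 12.2 RPM in R108G library 3 and 26.5 RPM in T263P library 3, against 8.42 and 7.50 RPM in cortex. These 6 tumours lay above both cortex libraries, and the other 22 lay below both, at 0 to 4.60 RPM, with no tumour between. The highest of the 22, R108K library 1, had 12 reads. Its exact Poisson 95% interval of 2.38 to 8.03 RPM, counting error only, reached the lower cortex library. R108K library 4 had no Npas4 read. A floor of 3 reads was 0.566 RPM there, and the exact Poisson 95% interval, counting error only, reached 0.696 RPM. Since the level was high in 6 tumours and low in the rest, no pooled correlation is given for Npas4. Its slope with no group terms, 0.96, also pools all tumours and has the same limit.

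Ordered by neuron score, the tumour with the highest score, A289V library 2 (8.58), had 811 Npas4 reads, while the next, A289V library 1 (8.26), had 2 reads or 0.356 RPM (exact Poisson 95% interval 0.0431 to 1.29, counting error only) and A289I library 4 (7.32) had 9 reads or 0.955 RPM (0.437 to 1.81). A289V library 4 (6.96), A289I library 2 (6.81), R108G library 2 (6.75) and R108G library 3 (6.59) were high, whereas mCherry library 1 (6.87) had 5 reads or 0.608 RPM and A289V library 3 (6.76) had 21 reads or 1.24 RPM. Of the 9 tumours with the highest neuron scores 5 were thus above cortex in Npas4 and 4 below it. T263P library 3, the remaining high tumour, had a score of 5.60. None of the 6 carried a library number below 20.

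Arc and Fosb were high in many of the same tumours. Arc was above both cortex libraries in 6 tumours, of which 5 were also above cortex in Npas4, 5 of 6 counted from either gene. The tumour high in Npas4 but not in Arc was T263P library 3, with 43.1 RPM of Arc, and the tumour high in Arc but not in Npas4 was mCherry library 1, with 72.1 RPM. Fosb was above both cortex libraries in 9 tumours, which included all 6 of those high in Npas4. Among them Fosb had 96.7 RPM in A289V library 2, 54.4 RPM in R108G library 2 and 49.7 RPM in A289V library 4. The 3 further tumours with high Fosb were EGFR wild-type library 3 (13.3 RPM), R108K library 1 (36.4 RPM) and R222C library 2 (38.4 RPM), which had 0.546, 4.60 and 0.725 RPM of Npas4 and neuron scores of 5.11, 5.17 and 4.92.

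The receptor forms were set against mCherry tumours to ask whether added EGFR changed the immediate early genes. None of the 10 members passed with limma in any of the 7 comparisons, which share the mCherry libraries. Of all genes, 0.607% were called for A289I, 4.91% for A289V, 0.0379% for R108G, 0.0695% for R108K, 0.00632% for T263P, and 0% each for wild-type EGFR and R222C. These shares are from limma. Of the 70 tests 4 had an unadjusted p under 0.05 in limma. The count tests called 0 (edgeR) and 2 (DESeq2), and their share of all genes is not given here.

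Nr4a1 gave 3 of those 4. It had 137, 319.7 and 219.8 RPM in R222C tumours, against 69.6, 48.6 and 46.1 RPM in mCherry tumours, a difference of 1.96 ± 0.60 (limma adjusted p = 0.410) with no overlap between the groups. In A289V tumours it had 109.6, 178, 143 and 118 RPM, again above every mCherry library, with a difference of 1.31 ± 0.56 (limma adjusted p = 0.147). For neither comparison was the share of all genes without overlap computed. In A289I tumours, at 87.7, 132, 318, 49.8 and 160.2 RPM, the groups overlapped and the difference was 1.19 ± 0.53 (limma adjusted p = 0.404). The fourth was Arc in A289V tumours, at 2.22 ± 0.96 (limma adjusted p = 0.153). It had 66.9, 616, 41.3 and 181 RPM in A289V tumours, against 72.1, 30.95 and 9.14 RPM in mCherry tumours, which overlapped. The 2 calls of DESeq2 were both in A289V tumours, Arc at 2.60 (adjusted p = 0.0337) and Npas4 at 5.74 (0.0265), where Npas4 had 0.356, 159, 1.24 and 116 RPM in A289V tumours and 0.608, 3.13 and 0.137 RPM in mCherry tumours, which overlapped. In the same comparison 4 of 25 neuron genes, 3 of 11 effector genes of neuronal activity, 3 of 12 myelin genes and 2 of 12 astrocyte genes were higher in A289V tumours, beside 3.23% of all genes. The neuron score was 6.76 to 8.58 in A289V tumours and 4.97 to 6.87 in mCherry tumours, and the part of these lists in the calls was not tested.

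Each variant was also set against wild-type EGFR, in 6 comparisons that share the 3 wild-type libraries. Arc in A289V tumours was the 1 call among 60 tests, beside 9.69% of all genes called up in that comparison and 0.335% called for A289I, and 0% for R108G, R108K, R222C and T263P. Arc averaged 226 ± 267 RPM in A289V tumours (SD, n = 4) and 13.6 ± 2.90 RPM in EGFR wild-type tumours (n = 3), a difference of 3.21 ± 0.96 (limma adjusted p = 0.0281). The wild-type libraries had 12.4, 11.5 and 16.9 RPM, and all 4 A289V tumours lay above them. How many of all genes did so was not computed.

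Neuronal content and other cell lists moved with this difference. The neuron score was 6.76 to 8.58 in A289V tumours and 3.91 to 6.12 in EGFR wild-type tumours, without overlap, and the score as a covariate left a difference of 1.01 (limma adjusted p = 0.942). Of 25 neuron genes 18 were higher in A289V than in EGFR wild-type tumours, as were 6 of 11 effector genes of neuronal activity, 5 of 12 astrocyte genes and 2 of 12 myelin genes, beside 9.69% of all genes, and none of these lists had a lower gene. Of 15 cell cycle genes 7 were lower, beside 3.96% of all genes. The part of astrocyte, myelin and cell cycle genes in the Arc difference was not tested. Among libraries numbered 20 to 37, 3 A289V and 1 wild-type, the difference was 3.23 (limma adjusted p = 0.218), with the lone library assumed to vary like the others. The call was lost without A289V library 1 (3.54, limma adjusted p = 0.0517), A289V library 2 (2.48, 0.132), EGFR wild-type library 1 (3.16, 0.0716) or EGFR wild-type library 2 (3.11, 0.0980).

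Of the other variant comparisons, Ier2 had 19.6, 23.6, 20.3 and 13.9 RPM in A289V tumours, against 37.9, 44.0 and 31.6 RPM in EGFR wild-type tumours. The groups did not overlap, with no share of all genes computed for this, and the difference of -0.94 ± 0.40 did not pass (limma adjusted p = 0.114). Npas4 in A289V tumours, at 0.356, 159, 1.24 and 116 RPM, overlapped the wild-type libraries at 0.241, 0.959 and 0.546 RPM (3.31 ± 1.59, limma adjusted p = 0.162, and called in DESeq2 at 0.00392). Variants of the same residue gave no call among 20 tests in limma or edgeR and 1 in DESeq2, with 0% of all genes called by limma for A289I against A289V and for R108G against R108K. At an unadjusted p under 0.05 they gave 2, Ier2 in A289I against A289V (1.08 ± 0.35, limma adjusted p = 0.125) and Arc in R108G against R108K (2.29 ± 0.96, 0.454, and the 1 call of DESeq2 at 0.0355). Arc had 6.85, 178 and 112 RPM in R108G tumours, against 15.7, 8.39, 7.77 and 9.81 RPM in R108K tumours.

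Across all 8 tumour groups at once, the limma F-test called none of the 10, beside 10.3% of all genes. The number called was 2 in edgeR (Arc and Ier2) and 3 in DESeq2 (with Npas4), for which the share of all genes is not given here. In limma 3 had an unadjusted p under 0.05, Arc (limma adjusted p = 0.0709), Ier2 (0.103) and Egr1 (0.155). The order of group means is therefore given as a description, since for no member did the groups differ beyond their spread by this test. Arc ran from 10.4 ± 3.63 RPM in R108K (SD, n = 4), 13.1 ± 0.865 in R222C (n = 3) and 13.6 ± 2.90 in wild-type EGFR (n = 3) through 23.2 ± 17.9 in T263P (n = 3) and 37.4 ± 31.9 in mCherry (n = 3) to 75.2 ± 97.2 in A289I (n = 5), 98.8 ± 86.1 in R108G (n = 3) and 226 ± 267 in A289V (n = 4). Ier2 ran from 19.4 ± 4.03 RPM in A289V to 74.5 ± 61.2 in R222C, where the 3 libraries had 28.9, 50.5 and 144 RPM. Fos group means lay between 50.1 ± 33.4 RPM in T263P and 105 ± 22.7 in R222C, and Nr4a1 group means between 54.8 ± 12.9 RPM in mCherry and 225 ± 91.6 in R222C. T263P library 2 had the lowest level of all tumours for Fos, Fosb, Junb and Egr1, at 11.6, 0.664, 13.2 and 12.9 RPM.

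Pairs of the genes were compared over the 28 tumours. Of 36 pairs of 9 genes, leaving out Npas4, 12 passed by both Pearson and Spearman permutation tests, all with a positive r. The share of passing pairs among all genes was not computed, so the count is a description. Fos and Egr1 had the highest r, 0.80 (rho 0.73, permutation p = 2e-05, adjusted p = 0.00027). Junb with Egr1 had 0.76 (rho 0.70), Fos with Junb 0.74 (rho 0.66) and Egr1 with Egr2 0.71 (rho 0.71). Without the 2 tumours farthest from the median of the first gene these were 0.67, 0.66, 0.60 and 0.73. Within the ranges of library numbers Fos with Egr1 was 0.68 below 20, 0.91 from 20 to 37 and 0.42 above 37.

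Fosb went with Arc, with an r of 0.75 (rho 0.71, permutation p = 3e-05, adjusted p = 0.00027). It was 0.63 without the 2 tumours farthest from the Fosb median, and 0.15, 0.78 and 0.94 within the 3 ranges in the order of library numbers. Fosb with Fos, in contrast, had 0.49 (rho 0.38, permutation adjusted p = 0.0289 and 0.081). Arc with Ier2 had an r of -0.32.

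**Figure D4:**
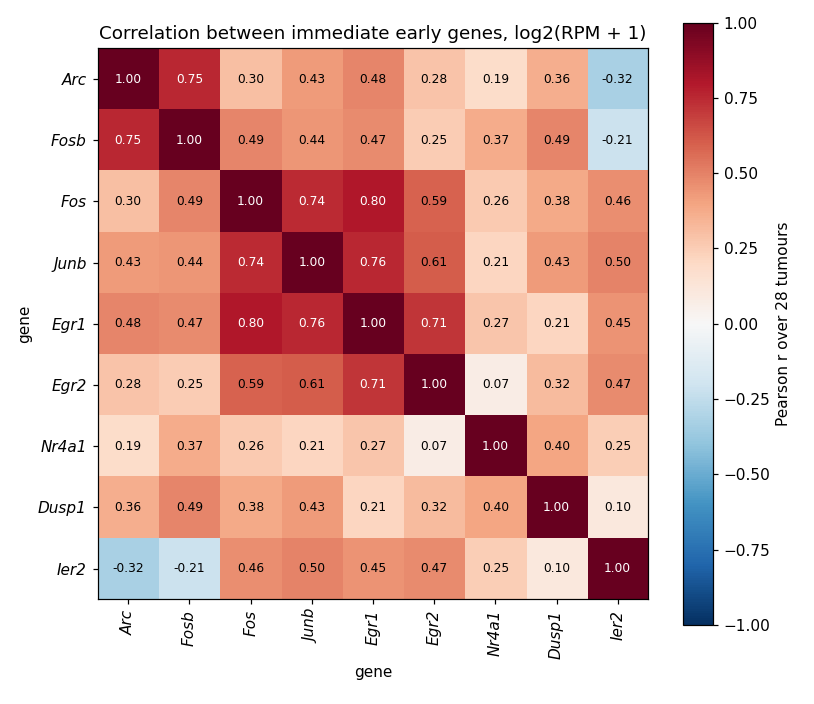
Pearson r between 9 of the immediate early genes over the 28 tumours on log2(RPM + 1), on a colour scale from -1 to 1. Fos, Junb, Egr1 and Egr2 form a block of high values, with Fos and Egr1 at 0.80, and Arc goes with Fosb at 0.75.

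Among 12156 other genes, those with the pattern most like each member except Npas4 over the 28 tumours were taken by Pearson r. Arc was most like Arl4d (0.93), which encodes a small GTP-binding protein, and Ptgs2 (0.92), the inducible cyclooxygenase. Fosb had Egr4 (0.86) and Ptgs2 (0.78) as nearest genes. Fos was most like Fosl2 (0.78), a further AP-1 subunit, and Junb was most like Zfp36 (0.83), which encodes an mRNA decay factor. Egr1 and Egr2 shared Nab2, an Egr co-repressor, among their nearest genes (0.75 and 0.77). For Egr1, Dlc1 (0.76) came above Nab2. Nr4a1 was most like Myh14 (0.84), Ier2 like Ano6 (0.80), and Dusp1 like Akap13 at 0.63, the lowest of the top values. The next gene after the nearest was Trip11 for Fos (0.71), Fosl2 for Junb (0.78) and Itga6 for Egr2 (0.77). It was Acan for Nr4a1 (0.79), Ier3 for Ier2 (0.78) and Ergic1 for Dusp1 (0.58).

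A list of 30 other immediate early genes was split in tumours against cortex, with 10 higher and 5 lower, beside 22.9% and 24.5% of all genes, and a median difference of 0.61 against 0.03 for all genes. The smallest p were those of Myc (4.66 ± 0.52, limma adjusted p = 2.45e-07), Maff (3.10 ± 0.45, 7.45e-06), Cyr61 (2.76 ± 0.40, 8.11e-06) and Socs3 (3.46 ± 0.51, 8.81e-06), a growth regulator, a small Maf protein, a matrix protein and a cytokine feedback inhibitor. The 5 lower genes, looked up after their values were seen, were Egr4 (-2.71), Egr3 (-2.56), Nr4a3 (-1.93), Ier5 (-1.34) and Jund (-0.86). On neuronal content 3 of the 30 rose and none fell, a share near the 9.12% of all genes called up, and the list's median slope was -0.08, with 12 of 30 slopes positive. The 3 were Egr3 (0.77 ± 0.15 per unit, limma adjusted p = 0.000514), Egr4 (0.83 ± 0.20, 0.00601) and Ier5 (0.38 ± 0.07, 0.000754), all of them among the 5 that were lower in tumours than in cortex.

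Effector genes of neuronal activity were counted in the same way. Of 11, none was higher and 7 were lower in tumours than in cortex, beside 22.9% of all genes called higher and 24.5% lower, with a median of -1.93 against 0.03 for all genes. Homer1, a synaptic scaffold, differed by -2.08 ± 0.37 and Nrn1, a neurite growth factor, by -3.23 ± 0.58 (limma adjusted p = 7.22e-05 and 8.86e-05). Pcsk1, a prohormone convertase, differed by -2.68 ± 0.53 and Rasgrp1, a Ras activator, by -3.26 ± 0.77 (limma adjusted p = 0.000214 and 0.00126). On neuronal content 8 of the 11 rose, beside 9.12% of all genes, and all 11 slopes were positive, with a median of 0.52 against 0.00 for all genes. Rasgrp1 rose by 1.14 ± 0.09 per unit (limma adjusted p = 9.53e-10), Scg2, a granin of secretory vesicles, by 0.90 ± 0.17 (0.000733), Pcsk1 by 0.59 ± 0.11 (0.000778) and Rgs2, a regulator of G protein signalling, by 0.42 ± 0.10 (0.00390).

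Of 12 feedback genes of receptor tyrosine kinase signalling, 2 were higher in tumours than in cortex and none lower, beside 22.9% and 24.5% of all genes. They were Spry1 (3.12 ± 0.57, limma adjusted p = 0.000106), an inhibitor of receptor tyrosine kinase signalling, and Etv4 (2.26 ± 0.67, 0.00784), a transcription factor downstream of it. Of 21 kinases and factors that act upstream of immediate early genes, 4 were higher and 10 lower in tumours, beside 22.9% and 24.5% of all genes, among them Mef2c (-3.58 ± 0.48), Mkl2 (-2.33 ± 0.38) and Camk4 (-3.78 ± 0.63), with limma adjusted p from 3.01e-06 to 3.90e-05. On neuronal content 5 of the 21 rose, beside 9.12% of all genes, led by Camk4 (0.89 ± 0.09), Mkl2 (0.52 ± 0.06), Mef2c (0.63 ± 0.09) and Mef2d (0.23 ± 0.07), with limma adjusted p from 7.90e-08 to 0.0237.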

How the data were processed

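Polyadenylated RNA had been sequenced from stranded libraries, per the labels' protocols, and whether reads were counted by strand is not given in the sources used here. The submitters' processing notes name FastQC, STAR 2.5.0a, DESeq2 1.20.0 and mm10, with no roles. The deposited signal tables, called RPM by the authors, hold counts divided by 1 size factor per library: all values but 1 came to whole reads within 0.05 of a read, at least 99.994% per library, and library totals were 9.31 to 12.04 times those of RPM. Values were divided by 10.2638, which left the authors' scaling in place. The design had assumed RPM, and its test on the log scale was kept.

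On log2(RPM + 1), limma 3.58.1 (R 4.3.3) fitted 9 group means to 30 libraries, with eBayes trend and robust, to the 15824 genes that reached 1 RPM in 3 or more libraries. The slope fit used 28 tumours, 8 group means and the neuron score, without the 25 neuron genes. Tests were two-sided. Correlations used permutation tests with 100000 resamples, or all permutations for up to 9 tumours. edgeR 4.0.16 and DESeq2 1.42.0 tested the recovered whole reads as alternatives. Shares of all genes called are those of the main limma fits, and those of the count tests are not given. Other alternatives were a pseudocount of 0.1, no filter, a filter of 5 RPM, TMM scaling, a term for library number ranges, the neuron score as covariate, 5 pan-neuronal genes, no group terms, cortex added, and each library left out. Fits within single ranges were chosen after seeing the data.

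On simulated data of 15824 genes, each with a dispersion of 0.2, the fit for tumours against cortex recovered 89% of 100 genes changed 8-fold. It recovered 28% of 100 changed 2.8-fold. Genes with a larger dispersion were not simulated. In the data the SE of this difference was 1.52 for Npas4, 1.05 for Fosb and 0.92 for Arc. Counting error alone gives a floor of 3 reads per library. Exonic lengths came from GENCODE M21 and promoters from RefSeq (GRCm38.p6). The named genes were all 10 members, up to 4 genes of smallest p per further list and comparison, and the 2 nearest genes of each member except Npas4. 1 gene that this rule names is not reported here. Members and lists were chosen with earlier results of these data known. Figures used Python 3.11.15 and matplotlib 3.10.9.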

Additional observations from a re-analysis of the deposited data

Results flagged for a closer look

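Within groups of 4 or 5 libraries, 5 of 30 combinations of gene and group held a library that stood apart from the rest by Dixon's test on RPM, where chance marks about 1 in 20 if values are normal, which RPM values need not be. On log2(RPM + 1) only 1 of the 5 remained, Npas4 in A289I library 2. A289I library 2 stood above the other 4 A289I libraries in Fosb (31.2 RPM), Arc (245 RPM) and Npas4 (141 RPM). R108K library 1 stood above the other 3 R108K libraries in Fosb (36.4 RPM) and Npas4 (4.60 RPM). Its Arc, at 15.7 RPM, and its neuron score, at 5.17, were also the highest of its group, but did not stand apart.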

How the results depend on the processing

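In tumours against cortex the number of members called (3) was 0 with the neuron covariate and 1 to 4 with single libraries left out. In mCherry against cortex (2) it was 0 with the term for library number ranges, 0 with the neuron covariate and 0 to 2 with libraries left out. For receptor forms against mCherry (0) it was 2 in DESeq2, and 0 with any library left out. For variants against wild-type EGFR (1) it was 0 with the neuron covariate, 2 in DESeq2 and 0 to 1 with libraries left out, and for variants of 1 residue (0) it was 1 in DESeq2. In the F-test (0) it was 2 in edgeR, 3 in DESeq2 and 0 to 1 with libraries left out: Arc passed without R108G library 1 (adjusted p = 0.0154) and Ier2 without R222C library 1 (0.0354). On neuronal content (1) it was 2 with TMM, 4 in DESeq2, 0 with 5 pan-neuronal genes, 4 with no group terms, 0 in the ranges below 20 and 20 to 37, 2 above 37, and 0 to 2 with libraries left out. Shares of all genes called under these other settings are not given here, so the changes in count are a description. Pearson correlations with the neuron score passed for 2 members, 0 within each range and 1 without the 2 farthest tumours. By Spearman rho over all tumours Ier2 passed as well, with a negative sign.

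Signs reversed, at values that passed under neither setting, as follows. In tumours against cortex the neuron covariate gave Arc 1.80, Fosb 2.16 and Npas4 1.52, Fosb was 0.410 in edgeR and 0.414 in DESeq2, and -0.41 to 0.019 with libraries left out. On neuronal content, no group terms gave Egr1 0.22, Fos 0.0028 and Junb 0.078, the range term gave Egr2 -0.028, and TMM gave Nr4a1 -0.018. Below 20, Dusp1 was -0.074, Egr2 -0.42 and Npas4 -0.46. From 20 to 37, Egr1 was 0.062 and Nr4a1 -0.021. Above 37, Egr2 was -0.035, Junb 0.26 and Nr4a1 -0.17. With libraries left out, slopes ran from -0.12 to 0.16 for Egr2, -0.093 to 0.18 for Junb and -0.082 to 0.14 for Nr4a1. The cause was not tested.

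No paired analysis was possible because replicate numbers were given in accession order and pair no samples. With 2 to 5 libraries per group, differences under about 2.8-fold were often missed on simulated data with a dispersion of 0.2. In genes that vary more, larger differences may also be missed, which was not simulated. All 90 group levels moved by less than their spread under TMM. Low Npas4 levels rest on few reads.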
